A study of Mus musculus with 53 samples.

Results

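Imprinted genes are read from only one of the parental copies, and several of them set the growth of the mouse embryo and placenta. The 8 genes described here are growth regulators of that kind, taken by name: H19, Phlda2, Cdkn1c, Igf2r and Grb10, which mouse tissues mostly read from the maternal copy, and Igf2, Peg3 and Mest, which they read from the paternal copy. All 8 were present among the 11647 genes of the bulk table and among the 23235 genes of the single-cell table. The files hold no allele information, so the parental class is background knowledge and every level below is the sum of both copies. The class is that of mouse tissues, and whether it holds in the cells used here was not tested.

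The cells were R1 mouse embryonic stem cells, a widely used line, grown in serum with LIF and no feeder cells. The series of 53 samples held 5 bulk RNA libraries, 45 single cells, 1 pool of cells and 2 chromatin precipitations. Bulk RNA came from cells labelled Tbx3 N/N (null), Tbx3 +/N (heterozygous) and Tbx3 +/+ (wild type), and from wild-type cells in which a short hairpin targeted Tbx3 (shTbx3) or luciferase (shLuc), with 1 library each. The single cells and the pool were wild type and sorted as SSEA1+DAPI-, a surface antigen of mouse stem cells with a dead-cell dye excluded. Tbx3 sites came from N/N cells that carried the biotin ligase BirA and a Flag-Biotin-Tbx3, with BirA-only N/N cells as the control. The targeted stretch of Tbx3 is not named in the labels, nor is it stated how many clones stand behind a genotype, or how the hairpins were delivered.

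Igf2 is the main growth factor of the embryo, and its neighbour H19 is a noncoding RNA. Both use the same enhancers, and a control region between them that binds CTCF on the unmethylated maternal copy directs the enhancers to H19 there and to Igf2 on the paternal copy. Cdkn1c and Phlda2 lie in another cluster, which the noncoding RNA Kcnq1ot1 silences on the paternal copy. Dppa3, the gene that the study sets against Tbx3, is known to protect the methylation of some imprinted genes in the mouse zygote, Mest and Peg10 among them.

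The sequences that carry the site result are given first. Of the 3078 deposited Tbx3 sites on mm9, the pair in the first intron of Peg3 held 9 copies of the 8 bases GCCATCTT, all on the strand of the gene. This is the core of the tandem repeats known at the Peg3 control region, which bind the zinc finger protein YY1. Each copy is shown 5′ to 3′ on the gene strand with 8 bases on either side, and the capitals mark the 8 bases searched for.
Copy 1 (chr7:6681583-6681606): atcctggcGCCATCTTtcctggcc
Copy 2 (chr7:6681442-6681465): accctgacGCCATCTTtgctggct
Copy 3 (chr7:6681154-6681177): aatttggcGCCATCTTtgccagca
Copy 4 (chr7:6681105-6681128): gtgcagacGCCATCTTgaatgaca
Copy 5 (chr7:6680667-6680690): cacctgacGCCATCTTtgctgacg
Copy 6 (chr7:6680637-6680660): gtgcagtaGCCATCTTgaatgaca
Copy 7 (chr7:6680548-6680571): acctgggcGCCATCTTtacttgtc
Copy 8 (chr7:6680126-6680149): cctctggcGCCATCTTtgttggcc
Copy 9 (chr7:6680004-6680027): tcattggcGCCATCTTtgttggcc

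The 300 bases of the stronger site that hold the most copies, 3 of its 7, show how the repeats are spaced (chr7:6680502-6680801, minus strand, mm9).
Peg3 intron 1: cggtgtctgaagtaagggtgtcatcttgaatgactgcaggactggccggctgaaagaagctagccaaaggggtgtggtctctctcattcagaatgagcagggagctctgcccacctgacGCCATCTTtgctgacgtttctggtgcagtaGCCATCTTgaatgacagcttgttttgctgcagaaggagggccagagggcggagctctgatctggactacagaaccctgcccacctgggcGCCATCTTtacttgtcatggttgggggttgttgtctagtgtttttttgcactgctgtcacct

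H19 is also the host of a microRNA, miR-675, whose levels are described with those of H19. Its mature forms are printed from RefSeq (GRCm38.p6), with the seed, bases 2 to 8, in capitals. The hairpin of 84 bases has the same sequence in mm9, where it lies inside H19 on the minus strand (chr7:149762969-149763052).
mmu-miR-675-5p: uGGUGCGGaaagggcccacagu
mmu-miR-675-3p: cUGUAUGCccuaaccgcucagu

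On mm9, with the GENCODE M1 annotation, H19 (chr7:149761434-149764048) and Igf2 (chr7:149836673-149852721) are neighbours on the minus strand, and Cdkn1c (chr7:150644255-150646955) and Phlda2 (chr7:150687450-150688446) lie further along the same chromosome and strand. Peg3 is on chromosome 7 too (chr7:6656603-6683132, minus strand), while Igf2r (chr17:12875272-12962530), Grb10 (chr11:11830511-11938686), both on the minus strand, and Mest (chr6:30673547-30698457, plus strand) lie alone of the 8 on their chromosomes.

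The bulk values are FPKM, fragment numbers scaled to the length of the transcript and the size of the library. The scaling is meant to let levels be set side by side between genes, which is unsure for very short ones. Tbx3 itself stood at 15.1 FPKM in N/N, 22.5 in +/N and 44.4 in +/+, and at 5.09 in shTbx3 against 13.8 in shLuc. With 1 library for each population no difference below has a replicate check, no p-value can be given, and the order of neighbouring levels cannot be tested. Differences are log2((a + 1)/(b + 1)) of FPKM, the population named first over the one named second, which understates the change of low genes. Differences that reached 2-fold on this scale were counted as calls. The N/N and +/N libraries are both set against the 1 +/+ library, so those 2 comparisons are not independent. In bulk RNA, fewer cells of a type and less RNA per cell cannot be told apart.

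**Figure D1:**
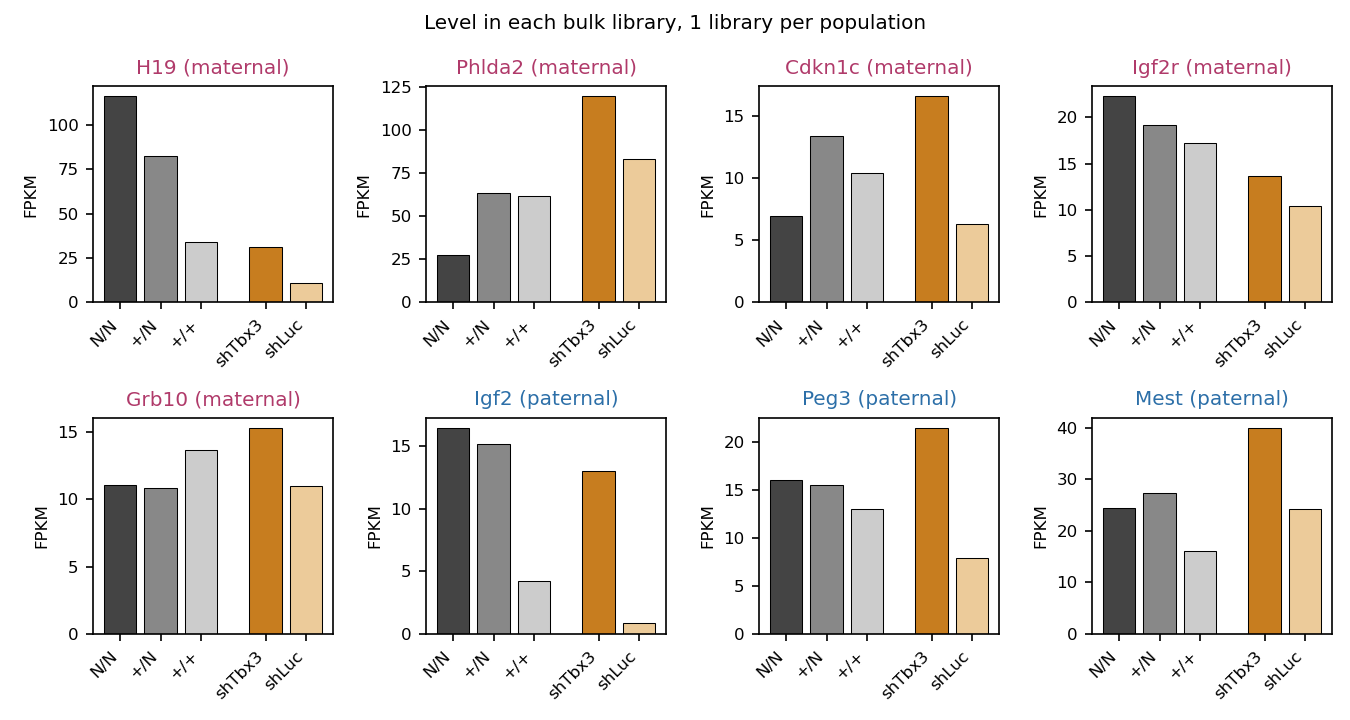
FPKM of each of the 8 genes in the 5 bulk libraries, 1 bar per library, with the axis starting at 0 and scaled per gene. H19 and Igf2 were higher in N/N and +/N than in +/+ and higher in shTbx3 than in shLuc, while Phlda2 was lowest in N/N (27.5 FPKM).

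Among the members read from the maternal copy, H19 showed the widest range. It stood at 116 FPKM in N/N, 82.4 in +/N and 34.2 in +/+, and at 31.1 in shTbx3 against 10.9 in shLuc. The log2 difference was 1.73 for N/N against +/+, 1.24 for +/N against +/+ and 1.43 for shTbx3 against shLuc, and each was past 2-fold. N/N and +/N differed by 0.49. The hairpin of miR-675 was listed at 2106 FPKM in N/N, 1559 in +/N and 328 in +/+, and at 0 in both shTbx3 and shLuc. It lies inside H19, so its reads and those of its host cannot be told apart in these values. At 84 bases the hairpin is short, so its FPKM is not comparable with that of longer genes such as H19. Which read length each bulk library had is not recorded, and its part in the values of 0 was not tested. Small RNA genes took 20.8% of the summed FPKM in N/N, 22.7% in +/N and 19.6% in +/+, but 5.43% in shTbx3 and 7.24% in shLuc, and the part of this difference in the miR-675 values was not tested.

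Igf2, the paternally read neighbour, kept that order among N/N, +/N and +/+ and in the hairpin pair. It was at 16.4 FPKM in N/N, 15.1 in +/N and 4.24 in +/+, and at 13.01 in shTbx3 against 0.871 in shLuc. The log2 differences were 1.74 for N/N against +/+, 1.62 for +/N against +/+, 0.11 for N/N against +/N (-0.017 with the libraries scaled without small RNA genes) and 2.91 for shTbx3 against shLuc. Of the 11342 genes counted in the hairpin pair, 0.150% had a larger difference than Igf2. Its difference was 3.76 with a pseudocount of 0.1 and 1.62 with 5. H19 and Igf2, which are read from opposite copies, were thus both higher in N/N and +/N than in +/+, and both higher in shTbx3 than in shLuc. The ratio of H19 to Igf2 FPKM was 7.06 in N/N, 5.44 in +/N and 8.08 in +/+, and 2.39 in shTbx3 against 12.6 in shLuc. Igf2 in shLuc was below 1 FPKM, so the last of these ratios rests on a low value.

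Phlda2 and Cdkn1c, neighbours in the Kcnq1 cluster, did not follow this order. Phlda2, which restrains growth of the placenta, was at 27.5 FPKM in N/N, 63.8 in +/N and 61.97 in +/+, and at 120 in shTbx3 against 83.1 in shLuc. It was past 2-fold lower in N/N against +/+ (log2 -1.14) and against +/N (-1.19), while +/N and +/+ differed by 0.042. Phlda2 was therefore low in 1 library of the allele set. In the hairpin pair it was higher in shTbx3 by 0.52, under 2-fold.

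Cdkn1c, an inhibitor of cyclin-dependent kinases, was at 6.98 FPKM in N/N, 13.3 in +/N and 10.4 in +/+, and at 16.5 in shTbx3 against 6.33 in shLuc. Its differences were -0.52 for N/N against +/+, 0.33 for +/N against +/+ and -0.84 for N/N against +/N, none past 2-fold. In shTbx3 against shLuc it was 1.26 higher, past 2-fold, and 0.93 with a pseudocount of 5. N/N was thus the lowest of the allele set for both genes, and shTbx3 was above shLuc for both.

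Other listed genes of the Kcnq1 cluster were set beside them for N/N against +/N, and further genes of the region were not looked up. Slc22a18, a transporter gene between Cdkn1c and Phlda2, was at 1.52 FPKM in N/N against 3.58 in +/N (log2 -0.86). Ascl2, a transcription factor of the trophoblast, was at 4.98 FPKM in N/N against 6.29 in +/N (-0.29), and Osbpl5 at 1.28 against 1.41 (-0.080). With Cdkn1c and Phlda2, all 5 of these genes were lower in N/N, beside 31.9% of all genes lower. The median over all genes was 0.073 in this comparison. Cdkn1c and Phlda2 had already been seen to be low in N/N, and Slc22a18 and Osbpl5 were at low levels. The other comparisons were mixed. For N/N against +/+, Slc22a18 (-0.88) was lower with Cdkn1c and Phlda2, but Ascl2 (0.12) and Osbpl5 (0.27) were higher. For shTbx3 against shLuc, Slc22a18 (-0.26) was lower, Ascl2 differed by 0.030 and Osbpl5 by 0.52.

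Igf2r and Grb10 had the smallest range of differences among the 5. Igf2r, the receptor that takes up Igf2 for degradation, was at 22.3 FPKM in N/N, 19.1 in +/N and 17.2 in +/+, and at 13.7 in shTbx3 against 10.4 in shLuc, with differences of 0.14 to 0.37 over the 4 comparisons. Grb10, an adaptor that dampens insulin and IGF receptor signalling, was at 11.1 FPKM in N/N, 10.9 in +/N and 13.7 in +/+, and at 15.3 in shTbx3 against 11.0 in shLuc. Its differences ran from -0.31 in +/N against +/+ to 0.44 in shTbx3 against shLuc. Neither gene passed 2-fold in any of the 4 comparisons.

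Of the other 2 members read from the paternal copy, Peg3, a zinc finger gene, was at 16.05 FPKM in N/N, 15.5 in +/N and 13.03 in +/+, and at 21.5 in shTbx3 against 7.97 in shLuc. Its difference was 1.33 in the hairpin pair, past 2-fold, and 0.28 in N/N against +/+. Mest, a gene of the hydrolase fold family, was at 24.4 FPKM in N/N, 27.3 in +/N and 16.1 in +/+, and at 39.998 in shTbx3 against 24.3 in shLuc. Its differences were 0.57, 0.73 and 0.70 in N/N against +/+, +/N against +/+ and shTbx3 against shLuc, all under 2-fold. Both genes were thus higher in N/N and in +/N than in +/+, and higher in shTbx3 than in shLuc.

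**Figure D2:**
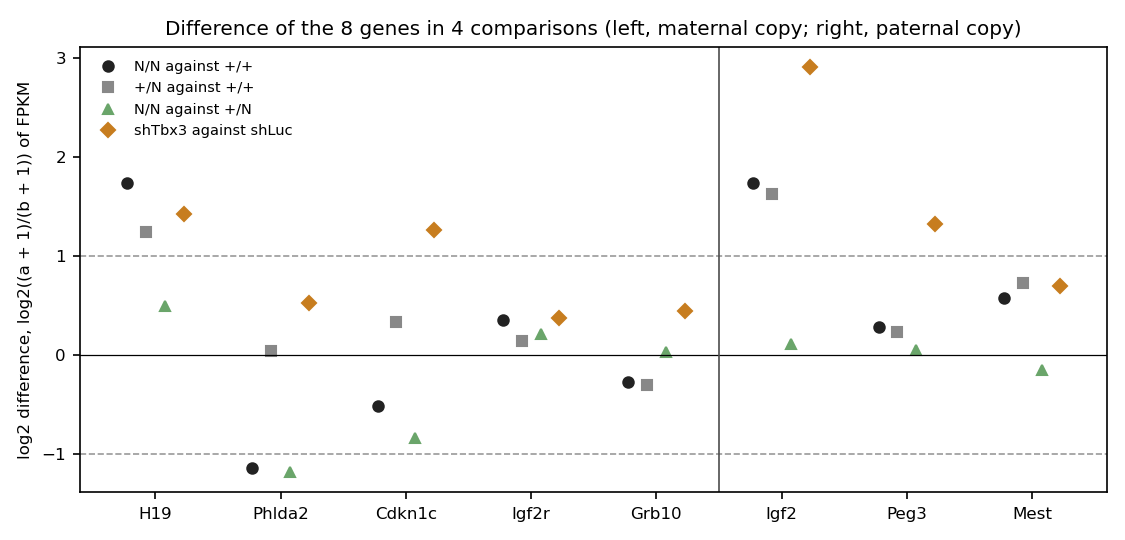
Log2 difference of FPKM (pseudocount 1) of each gene in the 4 comparisons, with dashed lines at 2-fold. Igf2 in shTbx3 against shLuc is the highest point (2.91) and Phlda2 in N/N against +/N the lowest (-1.19).

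The members' counts were read against all genes. In N/N against +/+, 2 of 8 members, H19 and Igf2, were 2-fold or more higher, beside 1.37% of 11478 genes, and 1 of 8, Phlda2, was 2-fold or more lower, beside 1.92%. In +/N against +/+, H19 and Igf2 were again higher, beside 0.698% of 11459 genes, and 0 of 8 were lower, beside 1.21%. Between N/N and +/N, 0 of 8 were higher in N/N, beside 0.317% of 11362 genes, and Phlda2 was lower, beside 0.308%. In shTbx3 against shLuc, 4 of 8 were higher, namely H19, Cdkn1c, Igf2 and Peg3, beside 2.81% of 11342 genes, and 0 of 8 were lower, beside 0.987%.

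A pair of these backgrounds depended on the scaling of the libraries. Genes with at least 5 FPKM in each of the 2 libraries had a median of 0.16 in shTbx3 against shLuc and -0.12 in +/N against +/+. With that median set to 0, the genes past 2-fold were 219 higher and 171 lower in the hairpin pair, against 319 and 112 as deposited. For +/N against +/+ they were 106 higher and 118 lower, against 80 and 139. The same members were past 2-fold after that step in both comparisons.

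The classes were then compared by the copy expressed. For N/N against +/+ the maternal members had a median log2 difference of -0.28 with 2 of 5 higher, and the paternal members 0.57 with 3 of 3 higher. In +/N against +/+ the medians were 0.14 with 4 of 5 higher and 0.73 with 3 of 3 higher. In shTbx3 against shLuc they were 0.52 with 5 of 5 higher and 1.33 with 3 of 3 higher. The medians of all genes in these 3 comparisons were -0.029, -0.10 and 0.14. The paternal median stood above the maternal one in each, but the classes overlapped, since H19 (1.73) stood beside Igf2 (1.74) in N/N against +/+ and above Peg3 and Mest in all 3. For N/N against +/N the medians were 0.026 and 0.048, and both took the opposite sign with the median of genes from 5 FPKM upward set to 0 or with the libraries scaled without small RNA genes.

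Further imprinted genes gave a wider view of the classes. Of 18 listed genes read from the maternal copy 10 were in the bulk table, and of 26 read from the paternal copy 17. Against +/+, 5 of 9 maternal genes at 1 FPKM or more were higher in N/N and 4 lower (median 0.12), and 12 of 16 paternal genes were higher and 4 lower (median 0.24), with none past 2-fold. Of all genes 46.04% were higher in this comparison. Sgce, which encodes a sarcoglycan, was at 7.28 FPKM in N/N against 3.22 in +/+, and Impact, a regulator of translation, at 44.2 against 23.2. Zdbf2, a zinc finger gene, went the other way, at 2.83 FPKM in N/N against 6.48 in +/+. Among the maternal genes the noncoding RNA Meg3 was at 39.3 FPKM in N/N against 25.7 in +/+, while the peptidase gene H13 was at 7.19 against 10.8 and the noncoding RNA Mirg at 4.18 against 6.01.

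In +/N against +/+, 6 of 9 maternal genes were higher and 3 lower (median 0.32), and 11 of 16 paternal genes were higher and 5 lower (median 0.056). Of all genes 35.01% were higher here. Meg3 was at 42.7 FPKM in +/N against 25.7 in +/+, and Peg10, a retrotransposon-derived gene needed in the placenta, at 143 against 80.4. Dlk1, a Notch ligand family member, was the only one past 2-fold, at 3.70 FPKM in +/N against 0.968 in +/+, beside 0.698% of all genes. This call was lost with a pseudocount of 5.

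Set against +/N, all 9 maternal genes that passed the filter were lower in N/N (median -0.18), and 10 of 15 paternal genes were higher and 5 lower (median 0.056), while 68.1% of all genes were higher and 31.9% lower. These 9 are not separate loci. Ascl2, Slc22a18 and Osbpl5 are the Kcnq1 cluster genes described above, and Meg3, Rian and Mirg share the Dlk1-Dio3 cluster. Mirg was at 4.18 FPKM in N/N against 6.43 in +/N, and Ube3a, a ubiquitin ligase, at 8.84 against 10.4. With no filter 1 of 10 maternal genes was higher and 9 lower. Scaled without small RNA genes, the 9 maternal genes were again all lower and the paternal genes were 6 higher and 9 lower. None of the genes of either list was past 2-fold in this comparison, but with a pseudocount of 0.1 1 gene of each list was lower past 2-fold. The 5 maternal members described above were 3 higher and 2 lower as deposited, and 2 higher and 3 lower with either other scaling.

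In shTbx3 against shLuc, 7 of 10 maternal genes were higher and 3 lower (median 0.22). Of the paternal genes, 12 of 16 were higher and 4 lower (median 0.25). The median of all genes was 0.14, and 64.5% of all genes were higher, near both of these shares. Past 2-fold were Peg10, at 164 FPKM in shTbx3 against 34.5 in shLuc, Nnat, a neuronal proteolipid, at 32.9 against 12.6, and Mirg at 24.1 against 11.0. Of all genes 2.81% were 2-fold or more higher. Ndn, a growth suppressor of neurons, was at 9.75 FPKM in shTbx3 against 5.31 in shLuc, and Meg3 at 113 against 57.1. With the median of genes from 5 FPKM upward set to 0, Mirg no longer passed 2-fold and the counts were 6 higher and 4 lower for maternal and 10 higher and 6 lower for paternal genes.

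**Figure D3:**
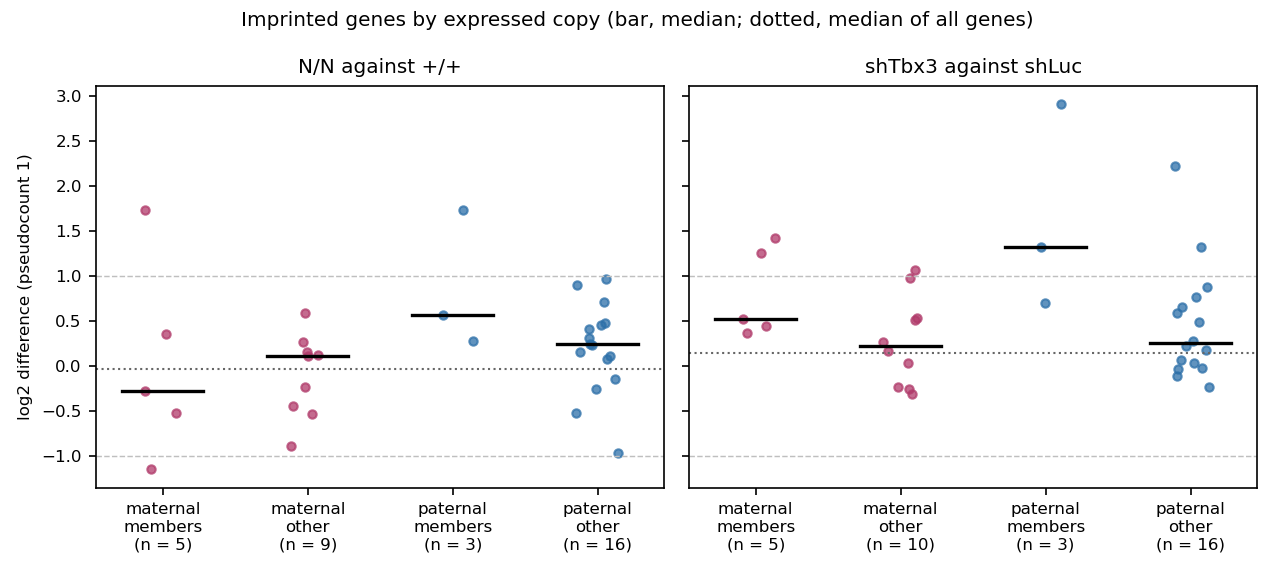
Log2 differences of the members and of the other imprinted genes at 1 FPKM or more, by the copy expressed, for N/N against +/+ and shTbx3 against shLuc; each point is a gene, the bar is the median and the dotted line the median of all genes. The paternal members lie at medians of 0.57 and 1.33, and the other imprinted genes spread on both sides of the line.

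The growth factor pathway around Igf2 and Igf2r was measured through 11 of 16 listed genes. Against +/+, 2 were higher in N/N and 9 lower, and in +/N against +/+ 4 were higher and 7 lower, with 0 past 2-fold in both, beside 46.04% and 35.01% of all genes higher. Igf2bp3, which binds Igf2 mRNA, was at 8.81 FPKM in N/N, 11.0 in +/N and 15.3 in +/+. Igfbp4, a binding protein that holds the growth factor outside the cell, was at 26.9 FPKM in N/N, 31.4 in +/N and 18.7 in +/+. Between N/N and +/N 5 were higher in N/N and 6 lower, a split that became 1 and 10 with the median of genes from 5 FPKM upward set to 0.

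In shTbx3 against shLuc 7 of the 11 were higher and 4 lower, near the 64.5% of all genes that were higher, and 3 were past 2-fold higher, beside 2.81% of all genes. Igfbp3, the main carrier of insulin-like growth factors in blood, was at 111 FPKM in shTbx3 against 9.08 in shLuc. Irs2, an adaptor of the receptors, was at 14.0 against 2.18, and Igfbp4 at 13.3 against 4.17. The receptor gene Igf1r itself was at 3.84 FPKM in shTbx3 against 2.95 in shLuc.

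Of 12 listed genes that maintain imprints, 11 were measured. In N/N against +/+ 2 were higher and 9 lower, beside 46.04% of all genes higher. The 1 past 2-fold was Dppa3, at 24.7 FPKM in N/N against 5.32 in +/+, beside 1.37% of all genes 2-fold or more higher. Zfp57, which keeps methylation on imprinted control regions, was at 66.4 FPKM in N/N, 79.5 in +/N and 104 in +/+, and at 178 in shTbx3 against 139 in shLuc. Trim28, its corepressor, was at 720 FPKM in shTbx3 against 479 in shLuc. Ctcf was at 28.8 FPKM in N/N, 28.6 in +/N and 38.7 in +/+, and Dnmt3b, a methyltransferase, at 32.1, 27.0 and 22.4. In +/N against +/+ 2 of the 11 were higher and 9 lower, and in N/N against +/N 8 were higher and 3 lower. In shTbx3 against shLuc 7 were higher and 4 lower. Of all genes 35.01%, 68.1% and 64.5% were higher in these 3 comparisons. Dppa3 in N/N against +/N was the only further gene past 2-fold, beside 0.317% of all genes 2-fold or more higher. With the median of genes from 5 FPKM upward set to 0 the split of N/N against +/N became 3 higher and 8 lower.

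Markers of other cell types moved with H19 and Igf2 in some comparisons. The 7 fibroblast markers of the table summed to 111 FPKM in N/N, 109 in +/N and 46.6 in +/+. Of these, 6 of 7 were higher in N/N against +/+ and 7 of 7 in +/N against +/+. The shares of all genes higher were 46.04% and 35.01%. Col1a1 was at 34.3 FPKM in N/N against 14.7 in +/+, and Postn at 8.60 against 2.63. Thy1 was the marker that was lower in N/N, at 10.03 FPKM against 11.1 in +/+. In the hairpin pair the same 7 summed to 19.2 FPKM in shTbx3 and 8.78 in shLuc. Of the 5 that passed the filter 4 were higher in shTbx3, beside 64.5% of all genes. Thy1 again went the other way, at 2.85 FPKM in shTbx3 against 5.81 in shLuc. Acta2 (7.89 FPKM in shTbx3 against 0.688 in shLuc, log2 2.40) and Col1a1 (4.38 against 0.205, log2 2.16) were past 2-fold. Of all genes 2.81% were 2-fold or more higher in this pair. Col1a2 was at 0.20 and 0.045, and Postn at 0.016 in shTbx3 and listed at 0 in shLuc. The part of these cells in the H19 and Igf2 values was not tested.

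Other markers differed too. The 6 extraembryonic endoderm markers in the table summed to 5.96 FPKM in N/N, 11.5 in +/N and 38.5 in +/+, and to 15.6 in shTbx3 against 12.5 in shLuc. Only 2 of the 6 passed the filter in the hairpin pair. Lama1 was higher in shTbx3 (13.45 FPKM against 9.43) and Dab2 lower (0.857 against 1.57). Of 8 listed trophoblast markers 5 were in the table. They summed to 67.3 FPKM in N/N, 46.01 in +/N and 49.3 in +/+, and to 345 in shTbx3 against 42.9 in shLuc. In shTbx3 these were mostly keratins, with Krt8 at 167 and 10.3 FPKM in that pair. Of 6 listed mesoderm markers 3 were in the table. They summed to 1.56 FPKM in N/N, 2.43 in +/N and 2.04 in +/+, and to 61.2 in shTbx3 against 1.07 in shLuc. In shTbx3 the sum was mostly T, at 35.5 FPKM, and Fgf8, at 25.4, while Pdgfra was at 0.324. The part of these markers' cell types in the Igf2, H19, Peg3 and Cdkn1c values of shTbx3 was not tested. All 7 stem cell markers were at 1 FPKM or more in every library, with sums of 1264 FPKM in N/N, 1320 in +/N and 1588 in +/+, and of 2164 in shTbx3 against 2045 in shLuc.

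For each member the genes of the nearest pattern over the 5 libraries were found by the Euclidean distance between log2(FPKM + 1) values centred on their mean. The genes scanned were those at 5 FPKM or more in at least 1 library, without small RNA genes and predicted gene models. H19 was closest to Gstm3, a glutathione transferase (distance 0.54, beside a median of 2.76 over the genes scanned), then to Aebp1 and Thbs1, a matrix protein and a matricellular protein. Igf2 was closest to another imprinted gene, Peg10, at 1.09, then to the smooth muscle actin Acta2 at 1.09 and to Cav1, which coats caveolae, at 1.18, beside a median of 2.85. Phlda2 was closest to Oaz1, Sox4 and Pcolce2 at 0.55 to 0.57 (median 1.45), and Cdkn1c to Colec12, Znhit2-ps and Rpl34 at 0.49 to 0.53 (median 1.18). Peg3 was closest to Relb, Nfkb2 and Jag2 at 0.26 to 0.27 (median 1.09), and Mest to Gss, Dusp22 and Dgkq at 0.24 to 0.30 (median 0.96). Igf2r was closest to Dip2b, Eif3f and Hs1bp3 at 0.072 to 0.087 (median 1.07), and Grb10 to Stx5a, Sec13 and Rcc2 at 0.036 to 0.059 (median 0.62). Flat patterns are near to many genes, so the small distances of Igf2r and Grb10 are read against their own medians.

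In single SSEA1+ cells the 8 genes fell into those present in most cells and those in few. A cell was counted at 1 FPKM or more, and intervals are exact Clopper-Pearson 95% intervals, which cover the counting of cells only. The single-cell table was scaled separately from the bulk table, so its levels are not set against bulk levels. Igf2r was present in 42 of 45 cells (93.3%, 81.7 to 98.6), with a lowest value of 0, a median of 14.6 and a highest of 56.8 FPKM. Phlda2 was present in 34 cells (75.6%, 60.5 to 87.1), with a median of 19.1 and a highest value of 1398 FPKM. The highest value of both genes was above the pool level, which was 133 FPKM for Phlda2 and 17.0 for Igf2r.

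Mest was present in 11 cells (24.4%, 12.9 to 39.5), with a highest value of 412 FPKM and a pool level of 48.6. Cdkn1c was present in 10 cells (22.2%, 11.2 to 37.1), with a highest value of 313 FPKM and a pool level of 15.5. Peg3 was present in 4 cells (8.89%, 2.48 to 21.2), Grb10 in 3 (6.67%, 1.40 to 18.3) and H19 in 2 (4.44%, 0.543 to 15.1), although the pool held them at 10.2, 14.2 and 16.5 FPKM. Cdkn1c, Mest, Peg3, Grb10 and H19 were thus each at 1 FPKM or more in 24.4% of cells or fewer. Counted at any value above 0, Cdkn1c was in 51.1% and Mest in 46.7%.

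H19 stood at 86.8 FPKM in cell 32, the cell with the highest Mest value, and at 10.5 FPKM in cell 4. Igf2 was listed at 0 in all 45 cells and at 0.600 FPKM in the pool. For a count of 0 among 45, the exact upper bound is 7.87% of cells at 1 FPKM or more. The approximation of 3 divided by 45 gives 6.67%. The bound limits cells in which the RNA was captured, not cells that express the gene. The hairpin of miR-675 was listed at 0 in every cell and in the pool.

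The shares of cells were read against those of other genes. How much RNA of a gene was captured was not measured, and its part in these shares was not tested. Among the 6659 genes at 10 FPKM or more in the pool, the median gene was present in 9 of 45 cells, with quartiles of 4 and 20. Igf2r was in more cells than 94.1% of these genes and Phlda2 than 88.0%, while H19 was in more cells than 11.0%, Grb10 than 17.8% and Peg3 than 24.3%. Sall4, a stem cell marker, was present in 45 of 45 cells at a pool level of 72.4 FPKM. Pou5f1, which every stem cell of this kind is known to express, was present in 11 of 45 cells although the pool held it at 1370 FPKM. The absence of a gene from a cell therefore does not show that the cell lacked its RNA.

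The mean over the 45 cells was compared with the pool. It was 1.88 times the pool level for Phlda2, 1.59 times for Cdkn1c and 0.955 times for Igf2r. It was 0.366 times for Mest, 0.131 for H19, 0.107 for Peg3 and 0.0786 for Grb10, beside a median of 0.447 and quartiles of 0.137 and 1.07 over the 6659 genes. H19, Peg3 and Grb10 thus lay below the lower quartile and Phlda2 and Cdkn1c above the upper one.

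At least 1 member was present in 44 of 45 cells, and a member read from the paternal copy in 14. All 14 of those cells also held a member of the maternal class, as did 44 of all 45 cells. Igf2r alone was in 42 of the 45, and the copy read in a cell was not measured. Phlda2 was present in 9 of the 10 cells with Cdkn1c and in all 11 cells with Mest, and Cdkn1c in 4 of the 11 with Mest. The most members in 1 cell was 5.

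The cells lie in 2 blocks of columns, in each of which the cell numbers run upward, with 23 cells in the first block and 22 in the second. The number of genes at 1 FPKM or more had a median of 2446 in the first block and 1973 in the second. Phlda2 was in 20 of 23 cells of the first block and 14 of 22 of the second, and Mest in 8 and 3. Cdkn1c was in 4 and 6 and Igf2r in 22 and 20, so the genes did not shift together. Fibroblast markers were rarely detected in these cells. Of 9 in the table, Col1a1, Col1a2, Col3a1, Postn, Lum, S100a4, Pdgfrb and Acta2 were below 1 FPKM in all 45 cells. Thy1 was present in 1 cell. In the pool Thy1 was at 7.91 FPKM, Acta2 at 2.20 and Pdgfrb at 1.75, and the others were below 1 FPKM. At such levels few detections do not show that the cells lacked these RNAs.

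Only Phlda2 and Igf2r were in at least 25% of cells, the limit for describing a correlation. Between them Spearman's rho was -0.030 and Pearson's r of log2(FPKM + 1) was -0.038 over the 45 cells, which differ in the number of genes detected. Within the blocks rho was -0.26 and 0.17. Among 2849 other genes the highest rho with Phlda2 were those of Dse (0.55), Atic (0.54) and Ergic3 (0.51), and with Igf2r those of Dgke (0.56), Decr2 (0.54) and Slc15a1 (0.54). All 6 were positive in both blocks, at 0.31 to 0.44 in the first and 0.56 to 0.70 in the second. They are the extremes of a scan, given as a description.

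**Figure D4:**
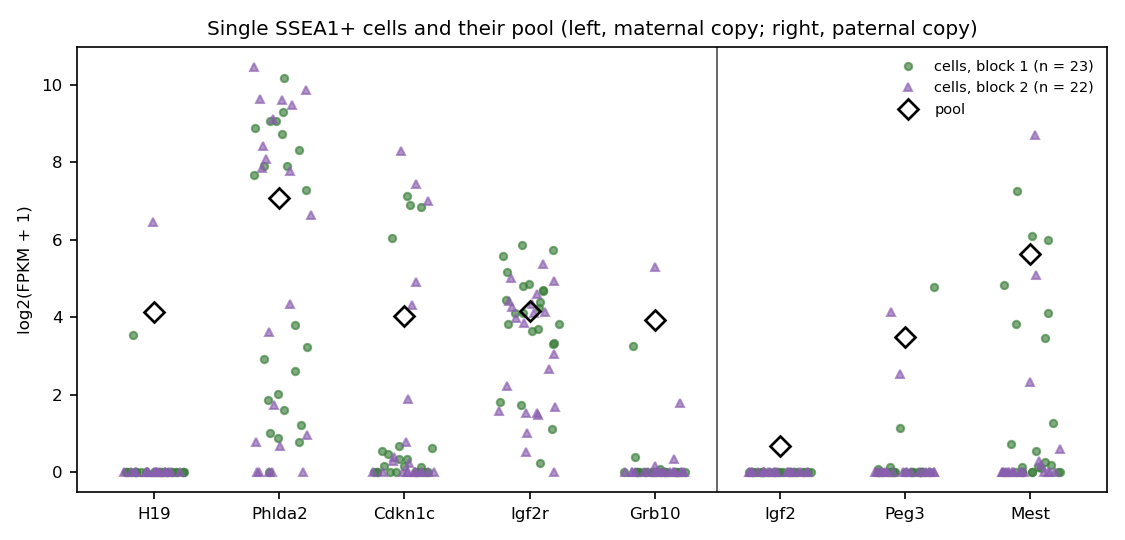
log2(FPKM + 1) of each gene in 45 single cells (points, by block of columns) and in the pool (diamond). Phlda2 and Igf2r are present in most cells, Igf2 lies at 0 in all, and H19, Grb10 and Peg3 are at 0 in most cells with pool values between 10.2 and 16.5 FPKM.

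Tbx3 sites were placed against the starts of the members on mm9. Their score is the authors' deposited value and ran from 50.01 to 791 with a median of 76.7. Peg3 and Cdkn1c, 2 of 8 members, had a site within 20 kb, beside 9.59% of 22380 coding genes and 14.8% of the 11166 coding genes of the bulk table. Phlda2 was 41.2 kb from its nearest site, which is that of Cdkn1c. The nearest site was 117 kb from the start of Igf2r, 229 kb from Grb10 and 564 kb from Mest. It was 771 kb from Igf2 and 860 kb from H19.

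The Peg3 gene (ENSMUSG00000002265.8, chr7:6656603-6683132, minus strand) had 2 sites in its first intron, between exons 1 and 2. The first, of 1365 bp (chr7:6680448-6681812), began 1320 bp downstream of the start and had a score of 534, rank 17 of 3078. The second, of 536 bp (chr7:6679909-6680444), lay 3 bp further on and had a score of 106. Neither overlapped an exon of the 5 annotated transcripts. With 1365 bp the first site was longer than the median site of 515 bp.

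The 9 copies of GCCATCTT printed above fell 7 in the first and 2 in the second of these sites, from 1534 to 3113 bp downstream of the start. The distance from one copy to the next was 30 to 438 bp. The 8 bases were searched on both strands (the other strand reads AAGATGGC), and 112 of 3078 sites held a match (3.64%). In the 300 bases at the centre of each site the share was 1.88%. Outside Peg3, 110 sites held a match and none held more than 1, so the Peg3 sites were the first and second by the number of copies. The T-box core GGTGTGA, held by 13.5% of sites, and the octamer ATTTGCAT, held by 8.45%, had no match on either strand in either Peg3 site, which says only that these letters are not in these windows.

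The Cdkn1c site covered the start of the gene (ENSMUSG00000037664.6, chr7:150644255-150646955, minus strand). It was 602 bp long with a score of 67.1, rank 1889 of 3078. A further site of score 116 lay 22.9 kb downstream of the start, between Cdkn1c and Kcnq1 (chr7:150623790-150624026). Both were rich in G and C, at 70.3% and 72.2%, beside a median of 49.6% over all sites, and neither held any of the 3 motifs.

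**Figure D5:**
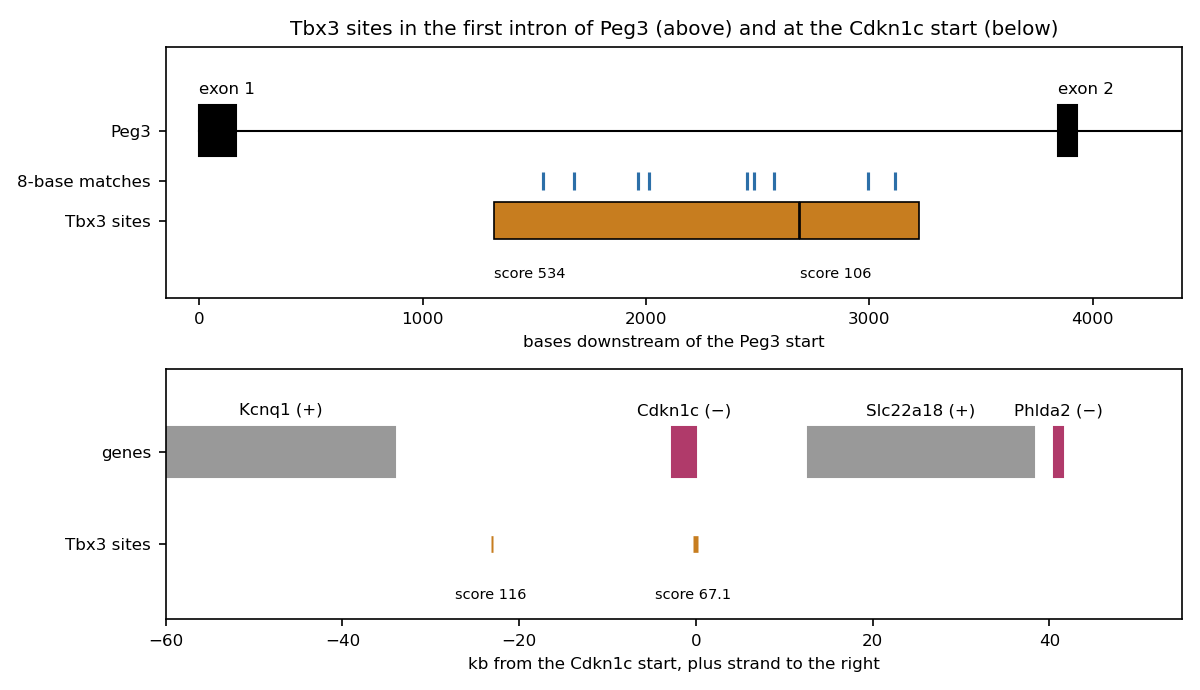
Tbx3 sites (orange) and 8-base GCCATCTT matches (blue ticks) by distance from the Peg3 start, and sites and genes by distance from the Cdkn1c start. The Peg3 sites lie in the first intron, beginning 1320 bp from the start, and hold 9 matches, and the Cdkn1c site covers the start.

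Sites and levels were set side by side. Peg3, with the site of the higher score, differed by 0.28 in N/N against +/+ and by 1.33 in shTbx3 against shLuc, and Cdkn1c by -0.52 and 1.26. H19 and Igf2, which were past 2-fold higher in both comparisons, had no site within 50 kb of their starts. The sites come from N/N cells with added Tbx3, and the RNA from other populations, so the measurements do not share a sample.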

How the data were processed

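Both tables hold FPKM computed by the authors. For the bulk libraries the submitters' processing notes list TopHat, Cufflinks, Cuffdiff and HOMER, for the cells TopHat and Cuffnorm, all with mm9. Bulk libraries were sequenced at either of a pair of read lengths, per the labels' protocols, without a record of which library had which. The deposited peak score comes with names of the MACS form, while the processing notes name Bowtie 1.0 and HOMER, so which tool made it is not known. No source used here gives the read depth, so no counting interval can be put on an FPKM value. An FPKM depends on the summed signal of its library. Reads of overlapping genes, such as Igf2 and its antisense or Igf2r and Airn, cannot be told apart, since strand use is not stated.

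Log2((a + 1)/(b + 1)) was computed for 4 comparisons on genes that reached 1 FPKM in at least 1 of the 2 libraries, with calls at 2-fold. As each population has 1 library, no test was made. All 8 members were named, and of each list the 3 genes with the largest change at 5 FPKM or more, some of which are not repeated in the text; Dlk1, Slc22a18, Osbpl5, Igf1r and the single markers of other cell types were named outside that rule, after their values were seen, as were the highest cells. Members and lists were chosen with earlier results of these data known. Sites were placed on GENCODE M1 (NCBIM37, the same assembly as mm9), and sequences were read from that genome. The calculations were tested on simulated data. Alternatives changed the pseudocount (0.1 and 5), the filter, the fold (1.5), the scaling, the level that counts a cell, the window (5 and 50 kb) and the site score (100). Python 3.11.15, pandas 2.3.3, numpy 2.4.6 and scipy 1.17.1 were used.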

Additional observations from a re-analysis of the deposited data

How the results depend on the processing

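The same members were past 2-fold in the 4 comparisons under pseudocounts of 0.1 and 5, no filter and both other scalings, except Cdkn1c in shTbx3 against shLuc, at 0.93 with a pseudocount of 5. With a limit of 1.5-fold, 2 members in place of 1 were lower in N/N against +/N, 3 in place of 2 higher in +/N against +/+, and 5 in place of 4 higher in shTbx3 against shLuc. The medians of both classes in N/N against +/N took the opposite sign with the median of genes from 5 FPKM upward set to 0 (maternal -0.067, paternal -0.046) and with small RNA genes left out of the scaling (-0.0997 and -0.082). Among the other imprinted genes in N/N against +/+, a pseudocount of 0.1 put 1 paternal gene higher past 2-fold, against 0 with 1. It put 2 paternal and 1 maternal gene lower, against 0 with 1. In +/N against +/+ the paternal count of 1 became 2 with a pseudocount of 0.1 or either other scaling and 0 with 5. In N/N against +/N a pseudocount of 0.1 put 1 maternal and 1 paternal gene lower, against 0 with 1. In shTbx3 against shLuc the paternal count of 2 became 4 with 0.1. The maternal count of 1 became 0 with 5 or either other scaling, and the 3 growth factor pathway genes became 2 with 5. Counted at any value above 0, Cdkn1c was in 51.1% of cells, Mest in 46.7% and Peg3 in 24.4%, and counted at 5 FPKM or more Igf2r was in 71.1%. The rho of Phlda2 and Igf2r was -0.26 and 0.17 within the blocks. With sites of score 100 or more, 1 member had a site within 20 kb. The cause of these changes was not tested. No paired analysis was possible because each group has 1 library. Read depth is unknown, which limits what can be said of genes near 1 FPKM, such as Igf2 in shLuc.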

Other observations

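Tbx3 sites were also placed against the other imprinted genes. Of 18 placed genes read from the maternal copy, 2 had a site within 20 kb, Ppp1r9a and Slc22a18, and the site of Slc22a18 is the one at the Cdkn1c start. Of 23 placed genes read from the paternal copy, 3 had one, namely Peg10, Sgce and Peg12. Peg10 and Sgce lie head to head and share a pair of sites, the nearer 1733 bp from the Peg10 start with a score of 82.4. Both shares, 2 of 18 and 3 of 23, are near the 9.59% of all coding genes and 14.8% of those in the bulk table with such a site. These genes were named after their values were seen.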
